A study of Gallus gallus with 4 samples.

Results

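In neural tube cells of chicken embryos, 166 of the 17108 genes in the count table were well expressed in control cells and clearly lower in both libraries made from cells expressing MEK1ca. They are the 2.03% of 8175 genes that passed the same control floor. A gene was included when its lower control level was at least 10 CPM (counts per 1000000 counts of the library) and its higher MEK1ca level was at most 0.667 times that control level. Genes on chromosome 16 and genes spanning 400 kb or more were left out, which removed 2 long genes that otherwise met both limits and 0 genes of chromosome 16. The genes were chosen by their levels in all 4 libraries, so the levels below describe the selection and carry no test of it.

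MEK1 phosphorylates ERK1 and ERK2 in the RAS/RAF/MEK/ERK cascade, and MEK1ca is a version of this kinase that is always active. In the caudal embryo, FGF signalling through ERK keeps neural progenitors immature, and neuronal differentiation begins as cells leave the reach of that signal. Part of the effect of activated ERK on transcription runs through transcription factors that it phosphorylates, including members of the ETS family.

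Embryos were electroporated on both sides in ovo at stage HH 11 with 5 pulses of 50 ms at 25 V. The pCIG group received the empty pCIG plasmid at 2 µg/µl. The MEK1ca group received pCIG-MEK1ca at 1 µg/µl together with pCIG at 1 µg/µl, so both groups carried pCIG, which drives nuclear GFP. The fluorescent part of the tube was dissected 18 h later and dissociated, and GFP-expressing cells were sorted by FACS with DAPI to leave out dying cells. There were 2 libraries per group from pooled embryos. Both pCIG libraries are labelled as a re-analysis of earlier samples. The pCIG libraries held 77004159 and 79064166 counts, and the MEK1ca libraries 63637195 and 76997561. No MEK1ca library carries that label, so a difference in when or how the groups were prepared cannot be told apart from the plasmid.

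The files give Ensembl identifiers, which they do not pair with gene names, and 0 of the 17108 identifiers matched the RefSeq table of a later assembly. The genes are therefore described by their position on galGal4, their structure and their levels, and the gene for MEK1 and the markers of neural tube, neural crest, mesoderm and other cell types were not looked up. In sorted bulk cells, fewer cells of a type and less RNA per cell cannot be told apart.

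The lowered genes together held 1.28% of all counts in each pCIG library, 0.607% in MEK1ca replicate 1 and 0.702% in MEK1ca replicate 2. Their summed level was 12752 and 12770 CPM in pCIG and 6068 and 7015 CPM in MEK1ca. Across the 166 genes, the mean MEK1ca level was 28.6 to 64.0% of the mean pCIG level, with a median of 52.5%. The difference of means was thus modest for most genes, at a median of 1.91-fold and a maximum of 3.50-fold, and 73 genes were at least 2-fold lower. Every gene had at least 783 counts in each pCIG library, 194 in MEK1ca replicate 1 and 276 in MEK1ca replicate 2.

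**Figure D1:**
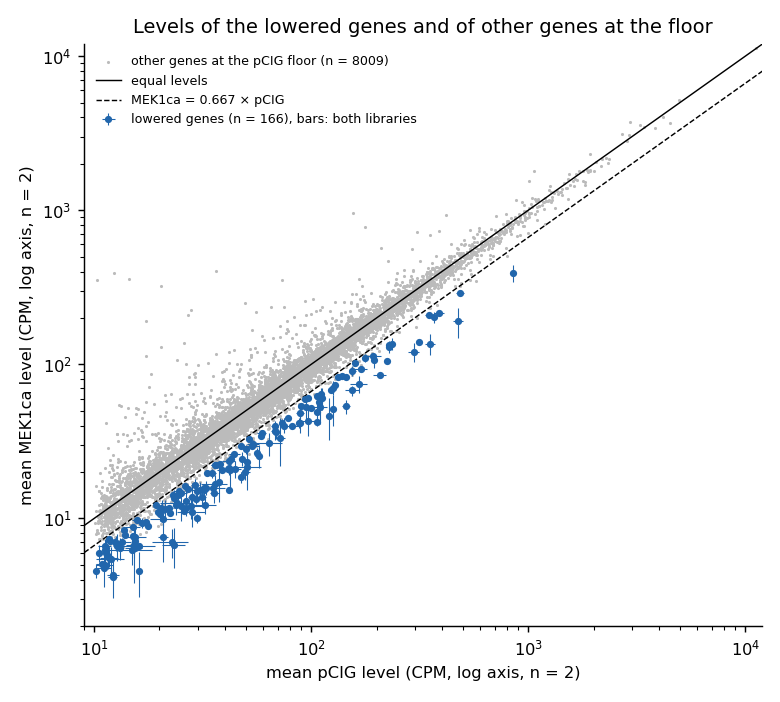
Mean level in MEK1ca (vertical, CPM, log axis) against mean level in pCIG (horizontal, CPM, log axis) for the 166 lowered genes (blue, with bars reaching both libraries of each group) and the 8009 other genes at the floor (grey). The lowered genes sit below the dashed line at 0.667 times pCIG and reach from 10.2 to 848 CPM in pCIG.

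The edge of the selection cut through a continuous range. Just inside the ratio limit, genes on chromosomes 20, 11 and 2 had ratios of highest MEK1ca to lowest pCIG level of 0.666, 0.665 and 0.664. Just outside, genes on chromosomes 2, 8 and Z had ratios of 0.667, 0.668 and 0.669. Within 0.02 of the limit there were 38 lowered genes below it and 32 genes above it. At the floor, the last genes included had a lower pCIG level of 10.1, 10.2 and 10.2 CPM, and the first ones left out had 9.66, 9.61 and 9.56 CPM.

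The lowest ratio was that of ENSGALG00000011205, a gene of 15 exons read from the minus strand of chromosome 3 (40939403 to 41033678). Its level was 30.5 and 29.3 CPM in pCIG replicates 1 and 2, and 9.40 and 10.6 CPM in MEK1ca replicates 1 and 2. The higher MEK1ca library was at 0.362 of the lower pCIG library, and the replicates of each group lay within about 1 CPM of their mean (29.9 ± 0.794 against 10.01 ± 0.867 CPM, SD, n = 2). A neighbour on the plus strand at 40680694 to 40713177 was also lowered, from 12.0 and 10.3 CPM to 5.99 and 3.58 CPM.

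The gene on the plus strand of chromosome 4 at 30294675 to 30371237, with 14 exons, had closely matched replicates. It was at 41.5 and 41.7 CPM in pCIG and at 15.1 and 15.4 CPM in MEK1ca, or 2.73-fold lower (41.6 ± 0.175 against 15.2 ± 0.154 CPM, SD, n = 2). On chromosome 24, a gene of 3 exons at 6235234 to 6238779 had 11.5 and 13.0 CPM in pCIG and 3.91 and 4.73 CPM in MEK1ca. On chromosome 1, a gene of 4 exons at 30483917 to 30503406 had 138 and 151 CPM in pCIG and 47.6 and 59.1 CPM in MEK1ca, so that its rank among all genes by count went from 1821 in pCIG replicate 1 to 4771 in MEK1ca replicate 1.

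By the ratio of means, the largest differences belonged to 2 genes of low level whose MEK1ca libraries stood apart. The first, on chromosome 14 at 6073676 to 6095679 (minus strand), had 16.3 and 15.8 CPM in pCIG, 3.08 CPM in MEK1ca replicate 1 and 6.08 CPM in MEK1ca replicate 2. Its log2 fold change in the edgeR fit described below was -1.78 with an SE of 0.30. The second, on chromosome 6 at 17505026 to 17522233 (plus strand), had 26.2 and 20.5 CPM in pCIG, against 4.78 and 8.70 CPM in MEK1ca (log2 fold change -1.76, SE 0.29). In both genes the groups were well separated, but MEK1ca replicate 1 was much lower than MEK1ca replicate 2.

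On chromosome Z, a gene of 7 exons at 52715880 to 52804502 had 104 and 109 CPM in pCIG and 39.9 and 45.2 CPM in MEK1ca. A compact gene on chromosome 20, 593 bases of exon at 10351641 to 10352379, had 194 and 221 CPM in pCIG and 84.9 and 84.6 CPM in MEK1ca. Per kb of exon its mean level was 349 CPM in pCIG and 143 CPM in MEK1ca, the highest of the lowered genes on that scale but for a gene of 70 bases described below. Chromosome 2 held a gene of 48 exons at 136370296 to 136490384, with 48.7 and 45.8 CPM in pCIG and 16.9 and 20.1 CPM in MEK1ca.

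The most abundant of the lowered genes was ENSGALG00000008279, on the plus strand of chromosome 12 at 18261478 to 18278207, with 2 exons. It had 830 and 866 CPM in pCIG and 342 and 438 CPM in MEK1ca, which is 848 ± 25.6 against 390 ± 68.3 CPM (SD, n = 2). Ranked by count among all genes, it stood at 124 and 118 in pCIG but at 499 and 335 in MEK1ca. This gene alone accounted for 7.37% of the summed difference of means, and 22 genes accounted for 50% of it.

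A further group of abundant genes kept moderate levels after the decrease. The gene on chromosome 21 at 6300381 to 6312118 had 450 and 499 CPM in pCIG, 148 CPM in MEK1ca replicate 1 and 232 CPM in MEK1ca replicate 2. On chromosome 2, a gene of 27 exons at 136104592 to 136163574 had 333 and 373 CPM in pCIG and 116 and 157 CPM in MEK1ca. The lowered gene of 48 exons described above starts within 500 kb of it. A gene of 31 exons on chromosome 26, at 2695759 to 2786683, went from 315 and 279 CPM to 103 and 137 CPM.

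Abundant genes with well-matched MEK1ca libraries were also found. On chromosome 5, a gene at 5217602 to 5235474 had 324 and 304 CPM in pCIG and 136 and 143 CPM in MEK1ca, a 2.25-fold difference of means. Another on the same chromosome, at 8927057 to 8961764, had 410 and 367 CPM in pCIG and 211 and 220 CPM in MEK1ca. The smallest differences among the 10 most abundant genes, both 1.66-fold, were on chromosome Z at 41628098 to 41693685 (504 and 466 CPM against 280 and 304 CPM) and on chromosome 3 at 48114482 to 48136195 (361 and 333 CPM against 198 and 219 CPM). Of the lowered genes, 46 had a lower pCIG level under 20 CPM and 1 was above 500 CPM, a level that 265 genes at the floor reached.

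**Figure D2:**
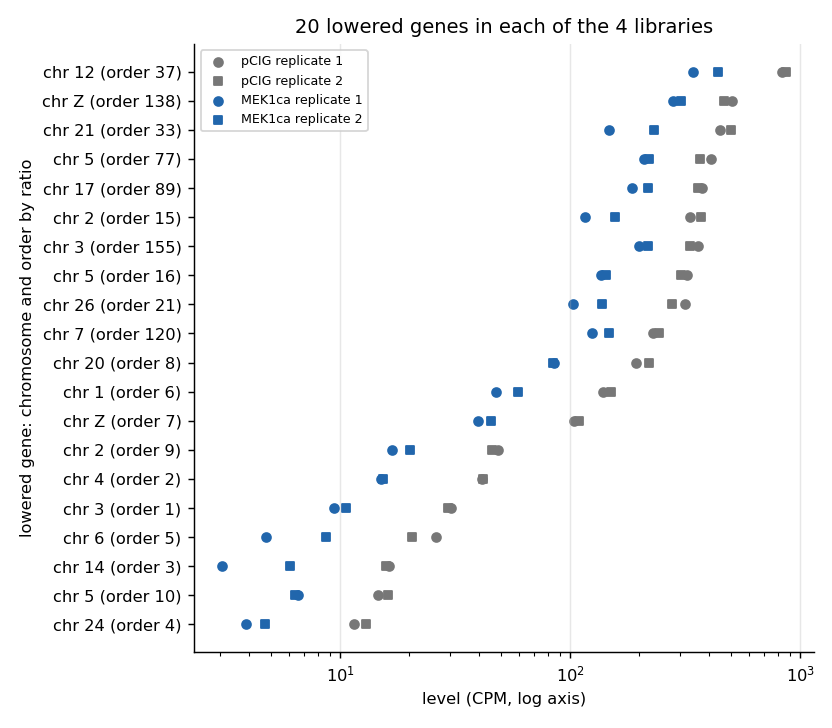
Level (CPM, log axis) of 20 lowered genes in each library, sorted by mean pCIG level and labelled by chromosome and by their order in the ratio of highest MEK1ca to lowest pCIG level. They are the 10 genes with the lowest ratio, the 10 most abundant and the 10 with the largest drop, which overlap, and MEK1ca replicate 1 (circles) lies left of replicate 2 (squares) in most of them.

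The share of lowered genes was highest at the lowest levels and did not fall steadily with level. The classes use the pCIG level that the rule also used, so these shares have no test. Of genes with a lower pCIG level of 10 to 20 CPM, 3.59% were lowered (46 of 1281), and of those at 20 to 50 CPM 2.39% (58 of 2429). Between 50 and 100 CPM the share was 1.22% (24 of 1974), and at 200 to 500 CPM it was 1.51% (12 of 794). Genes raised by the mirror of the rule, 177 in all, were 4.45% of the first class and 0.63% of the 200 to 500 CPM class. At 100 to 200 CPM there were 25 lowered and 14 raised genes, and at 200 to 500 CPM 12 lowered and 5 raised genes, so lowered genes outnumbered raised ones at those levels and not below them.

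The 2 MEK1ca libraries did not show the decrease to the same extent. Counts of MEK1ca replicate 2 were mostly even, as described below, and the part of this in the order of libraries was not tested. Of the 166 genes, 133 (80.1%) were lower in MEK1ca replicate 1 than in MEK1ca replicate 2, against 54.6% of all genes at the floor. The median gene was left at 48.1% of its mean pCIG level in MEK1ca replicate 1 and at 56.5% in MEK1ca replicate 2, and 90 and 42 genes respectively were at or below 50% of it. In pCIG, by contrast, 83 of the 166 genes (50.0%) were lower in replicate 1. The median difference between replicates, as a percentage of their mean, was 7.31% in pCIG and 15.1% in MEK1ca for the lowered genes, and 6.405% and 6.34% for all genes at the floor.

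Raised genes showed the opposite order of the MEK1ca libraries. Only 43 of the 177 raised genes (24.3%) were lower in MEK1ca replicate 1 than in replicate 2, and their median level was 2.30 times the mean pCIG level in replicate 1 and 2.04 times in replicate 2. Both sets of genes therefore lay further from pCIG in MEK1ca replicate 1. In pCIG, 35.0% of raised genes were lower in replicate 1. The order of replicates was not part of the rule, which used the higher MEK1ca level whichever library held it. Replicates of MEK1ca differed by over 1.5 times in 19 lowered genes, of which 15 were lower in replicate 1 and 4 in replicate 2, and replicates of pCIG in 1.

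**Figure D3:**
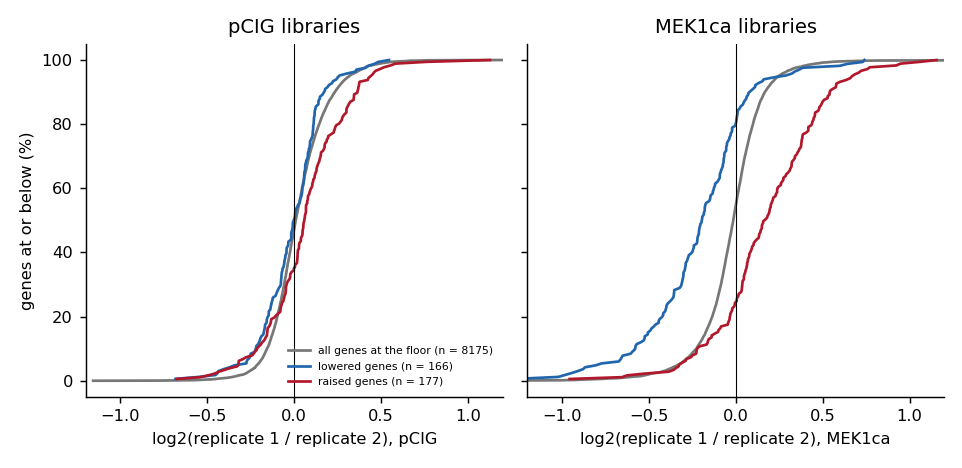
Cumulative share of genes (%) by the log2 ratio of replicate 1 to replicate 2 in pCIG (left) and in MEK1ca (right), for all 8175 genes at the floor (grey), the 166 lowered genes (blue) and the 177 raised genes (red). In MEK1ca the lowered genes are shifted to the left of 0 (80.1% below) and the raised genes to the right (24.3% below).

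In the edgeR quasi-likelihood fit over all 13024 tested genes, 159 of the 166 lowered genes passed as lower (Benjamini-Hochberg adjusted p, threshold 0.05), and 125 at 0.01. The background was 5.75% of all tested genes called lower (749 genes), or 7.71% of genes at the floor, and 1.95% of tested genes at 0.01. In the other direction 8.18% of tested genes were called higher. Since the same contrast chose the genes, nothing is read from these counts. The median log2 fold change was -0.91 over the lowered genes, with a range of -1.78 to -0.62, beside 0.00 over all genes at the floor and all tested genes. Without pCIG replicate 2 the fit called 98 of the 166 genes and 202 genes in all, and without pCIG replicate 1 it called 111 and 261. Both MEK1ca libraries lay below both pCIG libraries in 2903 genes at the floor (35.5%), and above both in 2249 (27.5%). The lowered genes are 5.72% of the 2903 genes.

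The 7 genes that did not pass had edgeR adjusted p-values of 0.0588 to 0.213. In 6 of them MEK1ca replicate 1 was the lower library. The gene on chromosome 1 at 164995573 to 165000858 had 68.8 and 75.4 CPM in pCIG and 22.0 and 44.5 CPM in MEK1ca. The gene on chromosome 17 at 5956541 to 5962675 had 13.9 and 16.7 CPM in pCIG and 3.79 and 9.05 CPM in MEK1ca, the widest ratio between MEK1ca libraries among the lowered genes, at 2.39. The abundant gene on chromosome 21 described above also belongs to these 7. The exception in the order of libraries was a gene with a single exon of 70 bases on chromosome 1, at 100348483 to 100348552, with 43.2 and 41.7 CPM in pCIG and 25.7 and 15.5 CPM in MEK1ca.

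Gene structure, which the rule used only through the limit of 400 kb, differed in its distribution from that of other genes at the floor. Of the lowered genes, 50 (30.1%) had at most 4 exons, against 15.0% of the 8009 other genes at the floor and 19.8% of raised genes. At the other end, 25 (15.1%) spanned at least 100 kb, against 6.74% of other genes and 23.7% of raised genes. All 25 of those long genes had at least 5 exons, so the genes of at most 4 exons and the long genes did not overlap. The median span was 22.9 kb for lowered, 16.1 kb for other and 33.9 kb for raised genes, and the median number of exons was 8, 10 and 10. Median summed exon length was 2622.5 bases for lowered and 2531 bases for other genes. Fold changes of all genes at the floor also varied with exon number, by small amounts. Their median log2 fold change was -0.06 at 1 exon, -0.07 at 2 to 4 and -0.03 at 5 to 9. It was 0.01 at 10 to 19 exons and 0.08 at 20 or more. These shares are descriptions with no test, and level and length are related across genes.

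Among the lowered genes, those with few exons had somewhat larger differences. The rule chose all of these genes by the same differences, so the comparison describes the selection only and has no test. The median difference was 2.09-fold in the 50 genes of at most 4 exons and 1.85-fold in the 116 others, and 30 (60.0%) and 43 (37.1%) of them were at least 2-fold lower. The range within both groups was wide, from 1.61- to 3.50-fold and from 1.56- to 3.23-fold. In the 25 genes of at least 100 kb the median was 1.83-fold, beside 1.91-fold in the 141 shorter ones. The long gene with the largest difference, on chromosome 2 at 48103440 to 48249944, had 18.5 and 27.0 CPM in pCIG and 8.60 and 5.51 CPM in MEK1ca.

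Strand was even, with 82 of the 166 lowered genes on the plus strand. Exons of 7 lowered genes (4.22%) overlapped exons of another gene, beside 7.62% of other genes at the floor. The shared stretches held 55 to 240 bases of exon. How strand was set in counting was not given in the sources used here, and reads from the shared bases cannot be told apart. The clearest case was on chromosome Z, where 2 lowered genes on opposite strands, at 58199293 to 58207595 and at 58207360 to 58208604, shared 236 bases of exon. The first had 104 and 108 CPM in pCIG and 60.6 and 63.3 CPM in MEK1ca, and the second 18.2 and 23.5 CPM in pCIG and 8.88 and 11.04 CPM in MEK1ca.

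The lowered genes were spread over 27 of the 29 chromosomes with a gene at the floor. Chromosomes 1 and 2 held 22 and 15 of them, or 1.99% and 2.02% of their genes at the floor. The share was highest on chromosome 24 (5 of 92, 5.43%), chromosome 26 (6 of 115, 5.22%) and chromosome Z (16 of 403, 3.97%), and lowest among larger chromosomes on chromosome 9 (1 of 230, 0.43%) and chromosome 13 (1 of 169, 0.59%). Chromosome 10 held 8 lowered genes and 1 raised gene, whereas chromosome 9 held 1 lowered and 8 raised genes. With so few genes per chromosome these shares have no test.

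**Figure D4:**
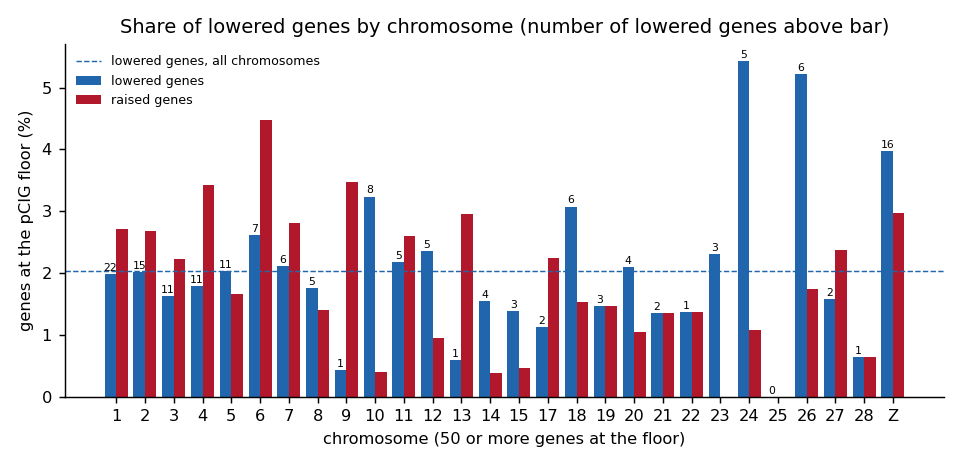
Share of genes at the pCIG floor (%) that were lowered (blue, number above the bar) or raised (red), for each chromosome with 50 or more such genes. The dashed line marks 2.03%, the share of lowered genes over all chromosomes. Of the chromosomes above it, 24, 26 and Z stand furthest above.

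On chromosome Z, which males carry as a pair and females as a single copy, all 16 lowered genes started at or after 31576518. Before 30 Mb there were 0 lowered genes among 176 at the floor, and from 30 Mb on there were 16 among 227 (7.05%), while raised genes numbered 5 and 7. This boundary was chosen after the positions were seen. The median log2 fold change of genes at the floor was -0.04 before it and -0.12 after it. The lowered Z genes differed 1.63- to 2.73-fold between groups, and all 16 were called lower in the edgeR fit. Of all genes at the floor on any chromosome, 7.71% were called lower. The Z genes were chosen by the same contrast, so nothing about Z is read from their calls.

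Examples on Z were a gene at 46263610 to 46283078 with 219 and 226 CPM in pCIG and 101 and 110 CPM in MEK1ca, and a gene at 50468934 to 50526465 with 68.6 and 69.4 CPM in pCIG and 32.7 and 39.9 CPM in MEK1ca. Genes on the W chromosome, carried only by females, summed to 86.2 and 106.5 CPM in pCIG and 123 and 143 CPM in MEK1ca, higher in both MEK1ca libraries. The part of embryo sex in the Z result was not tested. Without Z, 150 genes remained, with a median log2 fold change of -0.92, beside -0.81 for the Z genes.

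Lowered genes also lay near each other. In the order of genes at the floor, 17 adjacent pairs were both lowered, in 14 runs that hold 31 of the 166 genes, and 11 of these pairs were on a single strand. In the order of all genes in the table there were 9 such pairs. Raised genes formed 12 adjacent pairs, holding 23 of the 177, in the floor order and 8 in the order of all genes, so adjacency was seen in both sets. Another lowered gene lay within 100 kb of 30 lowered genes (18.1%) and of 438 of the 8009 other genes at the floor (5.47%), and within 500 kb of 28.9% and 20.5%. The 292 genes next to a lowered gene in the floor order had a median log2 fold change of -0.06, beside 0.01 over all other genes at the floor, and 10.6% of them were called lower in the edgeR fit, beside 5.88%.

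A run of 3 lay on chromosome 6. The strongly lowered gene at 17505026 to 17522233 was followed on the minus strand by a gene at 17554592 to 17557812, with 32.5 and 23.6 CPM in pCIG and 9.85 and 14.4 CPM in MEK1ca. The next, at 17563818 to 17576143, had 143 and 166 CPM in pCIG and 62.5 and 72.9 CPM in MEK1ca. The gene before the run, at 17454860 to 17491053, had 25.4 and 20.7 CPM in pCIG and 18.1 and 20.1 CPM in MEK1ca. The decrease past the limit was thus seen in 3 neighbours and not in the flanking gene at the floor on that side. Beyond it, a gene below the floor at 17424714 to 17438731 was called lower in the edgeR fit. Its level was 3.39 and 2.15 CPM in pCIG and 0.801 and 1.38 CPM in MEK1ca.

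On chromosome 26, 4 of its 6 lowered genes started within 500 kb of each other on the plus strand, the first at 4891507 to 4916817 with 93.4 and 93.6 CPM in pCIG and 57.8 and 61.2 CPM in MEK1ca. The last 2, at 5204578 to 5209509 and at 5211510 to 5214635, lie 2.00 kb apart, with 30.5 and 28.1 CPM against 12.4 and 14.4 CPM for the former and 88.1 and 90.2 CPM against 36.0 and 47.6 CPM for the latter. A gene at 5157231 to 5161261 had 114 and 108 CPM in pCIG and 57.4 and 70.7 CPM in MEK1ca. The gene that follows, at 5244545 to 5281001, stayed outside the limit with 209 and 179 CPM in pCIG and 129 and 132 CPM in MEK1ca, and was itself called lower. Between the first and the second lowered gene lay 7 other genes at the floor, with log2 fold changes from -0.66 to 0.04. The lowest value was that of the gene at 4960037 to 4974337, with 32.0 and 21.4 CPM in pCIG and 15.1 and 18.2 CPM in MEK1ca. The gene at 5056220 to 5060765 was called lower in the edgeR fit, with 59.6 and 60.1 CPM against 46.6 and 47.6 CPM, and the gene at 5060817 to 5063516 was the 1 with a value above 0.

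On chromosome 11, 3 minus-strand genes between 3182494 and 3663534 followed each other in the floor order, at 23.2 ± 0.400, 13.2 ± 0.126 and 26.4 ± 0.420 CPM in pCIG and 13.5 ± 2.54, 6.42 ± 1.53 and 11.7 ± 0.872 CPM in MEK1ca (SD, n = 2). On chromosome 5, a single-exon gene at 3505430 to 3506994 had 14.6 and 16.1 CPM in pCIG and 6.57 and 6.36 CPM in MEK1ca. The lowered gene 19.4 kb to its right had 19.8 and 20.6 CPM in pCIG and 9.55 and 11.8 CPM in MEK1ca. In the same stretch, the gene at 3627318 to 3645623, with 12.9 and 15.0 CPM in pCIG and 7.95 and 12.8 CPM in MEK1ca, was not lowered, but the gene after it, at 3647767 to 3711001, was, with 130 and 123 CPM against 63.5 and 77.4 CPM.

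The 11 other runs were pairs. The gene next to the strongly lowered gene of chromosome 1 (30483917 to 30503406), at 30284796 to 30405559, had 151 and 180.2 CPM in pCIG and 65.6 and 83.9 CPM in MEK1ca. On chromosome 20, the gene after the compact one of 593 exon bases, at 10359785 to 10377592 on the opposite strand, had 75.2 and 81.0 CPM in pCIG and 44.8 and 45.5 CPM in MEK1ca. The pair on chromosome 18, 4.28 kb apart on opposite strands, was lowered from 47.8 ± 1.06 to 24.4 ± 3.68 CPM (6678617 to 6695673) and from 228 ± 8.14 to 129.8 ± 16.2 CPM (6699948 to 6706337; SD, n = 2). In each of these genes both MEK1ca libraries lay below both pCIG libraries, as the rule requires.

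On chromosome 10, 3 lowered genes within 500 kb were separated by genes that differed little. The first, at 19351716 to 19390921, had 52.1 and 47.3 CPM in pCIG and 17.8 and 22.0 CPM in MEK1ca. The gene right after it at the floor, at 19399829 to 19417423, had 144 and 151 CPM in pCIG and 140 and 130 CPM in MEK1ca. The other lowered genes, at 19488944 to 19494075 and 19527619 to 19535987, had 17.7 ± 0.495 and 99.4 ± 3.83 CPM in pCIG and 8.94 ± 0.487 and 52.4 ± 1.40 CPM in MEK1ca (SD, n = 2).

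**Figure D5:**
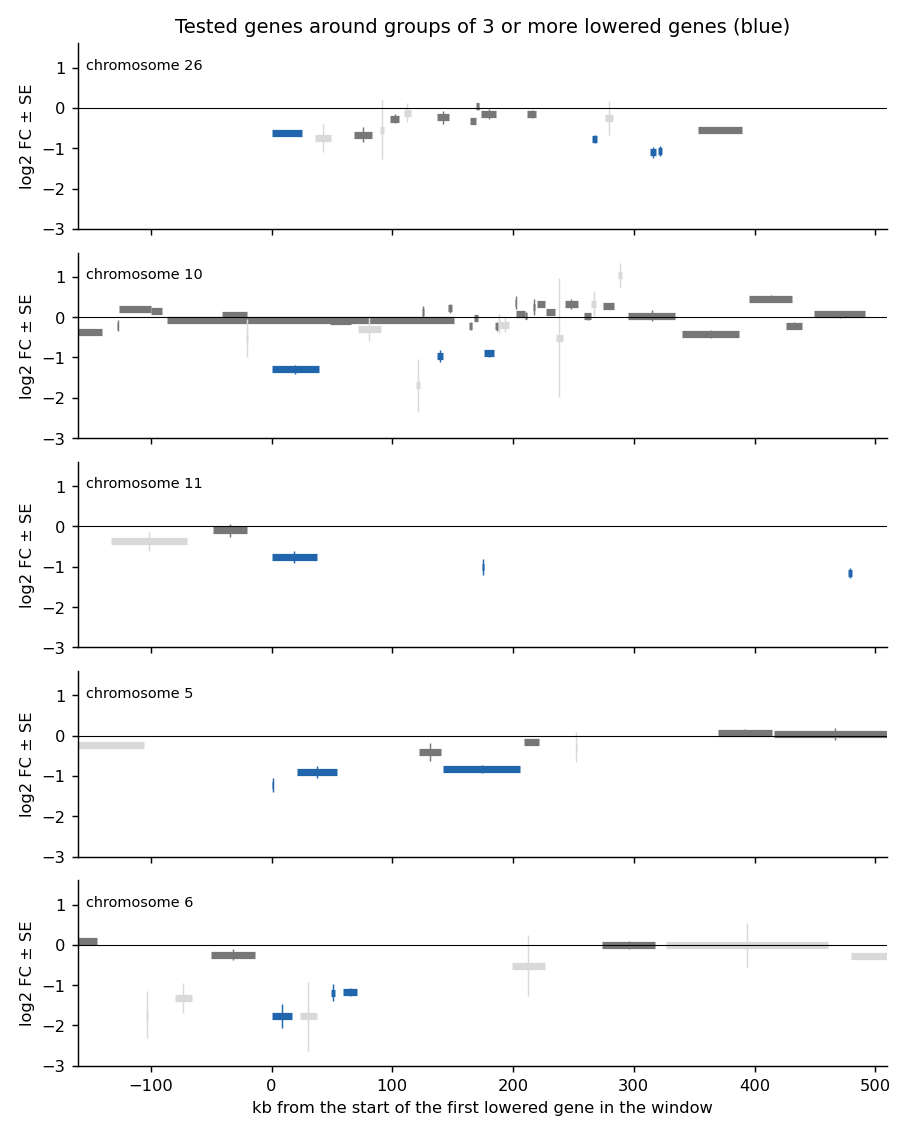
Log2 fold change of MEK1ca versus pCIG with its SE (vertical) for tested genes around 5 groups of 3 or more lowered genes, against distance in kb from the start of the first of them. Horizontal bars span the gene, lowered genes are blue, other genes at the floor dark grey and genes below the floor light grey. In the order of genes at the floor, runs of 3 lowered genes lie on chromosomes 6, 11 and 26, and a pair on chromosome 5. On chromosome 10 the lowered genes are interspersed with genes near 0.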

How the data were processed

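The authors' deposited count table gave whole-number counts per gene and library, with exon coordinates, strand and summed exon length. Per the labels, the processing notes name Subread, featureCounts, DESeq and galGal4 without versions. A second table holds the authors' own fold changes and p-values and was not used. The 37 mitochondrial genes were listed at 0.

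The lowered genes and all lists were chosen with earlier results of these data known. CPM were taken on library totals. Tests used edgeR 4.0.16 in R 4.3.3 on the counts (filterByExpr, TMM, robust glmQLFit and glmQLFTest, group as the only term, two-sided, Benjamini-Hochberg), which was tested on simulated data. The SE of a log2 fold change was back-calculated as its absolute value divided by the square root of the F statistic from glmQLFTest. The genes described were the 10 with the lowest ratio, the 10 most abundant, the 10 with the largest drop, those at the limits and neighbouring groups. Long genes, Z genes and genes that missed the edgeR threshold were chosen after their values were seen. The 10 gene lists and 6 marker lists planned by symbol could not be applied. Alternatives were DESeq2 1.42.0, limma-voom 3.58.1, other scalings, filters and limits, a replicate block and leaving out each library. With 2 pools per group, SDs measure only the spread between these pools. The p-values set the difference between groups against a spread estimated only from these pools, with information shared across genes. PCR copies add error that counts do not show.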

Additional observations from a re-analysis of the deposited data

How the results depend on the processing

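Of the alternatives, those for the ratio limit gave the smallest and largest numbers of lowered genes. A ratio of at most 0.5 left 22 and at most 0.8 gave 491, by construction. A pCIG floor of 5 CPM gave 212 and a floor of 20 CPM gave 120. TMM-adjusted library sizes gave 153. Leaving out a library loosens the rule and gave 200 to 384 genes (275 without pCIG replicate 1, 384 without MEK1ca replicate 2), the 166 among them by construction. Leaving out a library in edgeR gave 98 to 164 of the 166 genes called lower, 202 to 900 of all genes, and a median log2 fold change of -1.02 to -0.81 over the 166. The lone library left was assumed to vary like the other group. At an adjusted p under 0.01, 125 of the 166 and 254 of all genes were called lower. The replicate block called 1291 genes lower, 163 of the 166 among them, and the cause was not tested. The labels do not say that a number marks a shared batch, so equal numbers were treated as a name only. The replicate differences correlated at 0.151 between groups across genes, and whether equal numbers share a batch was not tested. RLE scaling, library totals, DESeq2, limma-voom, either filter and halved counts of MEK1ca replicate 2 called 155 to 163 of the 166. Over all genes they called 704 to 1007 lower. The halved counts were added after seeing the data. Because the same contrast chose the 166, nothing is read from these numbers of calls. Of the 20 genes in the plot by library, 4 lost the edgeR call without a pCIG library, those on chromosomes 14, 6, 12 and 2 (136104592 to 136163574), and the gene on chromosome 21 passed in 6 alternatives. The smallest count of the 166 genes was 194, in MEK1ca replicate 1. The part of depth in these results was not tested. Nor was that of the even counts of MEK1ca replicate 2, described below.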

Other observations

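In MEK1ca replicate 2, 144 of the 166 lowered genes (86.7%) and 79.5% of all genes at the floor had an even count, against 51.2, 51.8 and 54.2% of the lowered genes in pCIG replicate 1, pCIG replicate 2 and MEK1ca replicate 1. The part of this in the order of the MEK1ca libraries was not tested. Halving all counts of that library before the edgeR fit gave 159 of the 166 genes called lower, the same number as with the deposited counts. Scaling by library size removes a uniform halving, so this fit cannot show what the even counts do to the calls.

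The lowered gene with the highest level per kb of exon was the gene of 70 bases on chromosome 1, at 606 CPM per kb in pCIG and 294 CPM per kb in MEK1ca. The next shortest of the 166 genes had 439 bases of exon.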
